A study of Mus musculus with 4 samples.

Results

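The amino acid transporters examined here are 10 genes that encode plasma membrane carriers or, for Slc3a2, the heavy chain of some of them: Slc7a1, Slc7a2, Slc7a5, Slc7a11, Slc3a2, Slc38a2, Slc38a3, Slc38a4, Slc1a4 and Slc1a5. This list of genes was chosen with earlier results of these data known. Its probes were taken by gene symbol, as every gene probe that carries one of these names in the scanner files, without use of any measured value. This gave 12 probes of 39429, for 10 genes of 30439, because Slc7a5 and Slc1a5 each have a pair of probes and every other gene has 1. Of the 10 genes, 9 were detected on at least 1 array, that is, marked by the scanner software as well above the local background, and Slc7a11 was detected on none.

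Liver RNA was measured on 4 one-colour Agilent arrays, so that each genotype has 1 fasted and 1 refed liver sample. Drp1LiKO mice carried Drp1 flox/flox with an albumin promoter-driven Cre transgene, which is active in hepatocytes, and the control mice (Cont, called wild type in the labels) were Drp1 flox/flox littermates, so that both groups carried the floxed alleles. All mice were male C57BL/6J on a high-fat diet (HFD) for 24 weeks, begun shortly after weaning. By the series record, refed mice had been fasted for 17 h and then refed for 4 h (the study's methods give a slightly shorter fast), and the remaining arrays, whose labels name no feeding state, are called fasted after the description of the study. Nothing says how many animals each array represents, and with 1 array per group the differences between these livers cannot be told apart from differences between animals.

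Hepatocytes take up amino acids from portal blood for protein synthesis, gluconeogenesis and ureagenesis, and they do so through carriers of several families. Members of family 38 bring in glutamine and small neutral amino acids together with sodium, members of family 7 carry cationic amino acids or, as light chains bound to the glycoprotein Slc3a2, large neutral amino acids or cystine, and Slc1a4 and Slc1a5 exchange small neutral amino acids. Several of these genes are known targets of the transcription factor Atf4, which acts when amino acids run short or organelles are stressed. Drp1, the product of Dnm1l, is the enzyme that divides mitochondria.

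A level below is the log2 of the background-subtracted signal minus the log2 of the 75th percentile of its array, so a level of 0 is the brightness that 3 in 4 gene spots do not reach. The 75th percentile lay between 357 and 722 signal units, and between 48.7% and 58.2% of gene spots were detected. A difference is a difference of levels, with a measurement SE from the scanner's error model that covers the spot and not the animal. A difference was counted where it was at least 2-fold and the gene was detected on the brighter array. The number of arrays limits the precision. Dnm1l has 1 probe, on which Drp1LiKO minus Cont was -0.21 (SE 0.20) in fasted and -0.12 (SE 0.20) in refed liver, and the files do not say whether that probe lies in the deleted part, so the labels could not be checked against it.

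All 7 hepatocyte markers that have a probe were detected in every sample. Markers of other cells were present too: 12 of 12 Kupffer cell and macrophage, 6 of 6 neutrophil, 8 of 8 stellate cell and fibroblast, 6 of 6 endothelial and 5 of 6 cholangiocyte markers were detected at least once, with Epcam the exception. In such bulk samples, fewer cells of a type and less RNA per cell cannot be told apart.

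**Figure D1:**
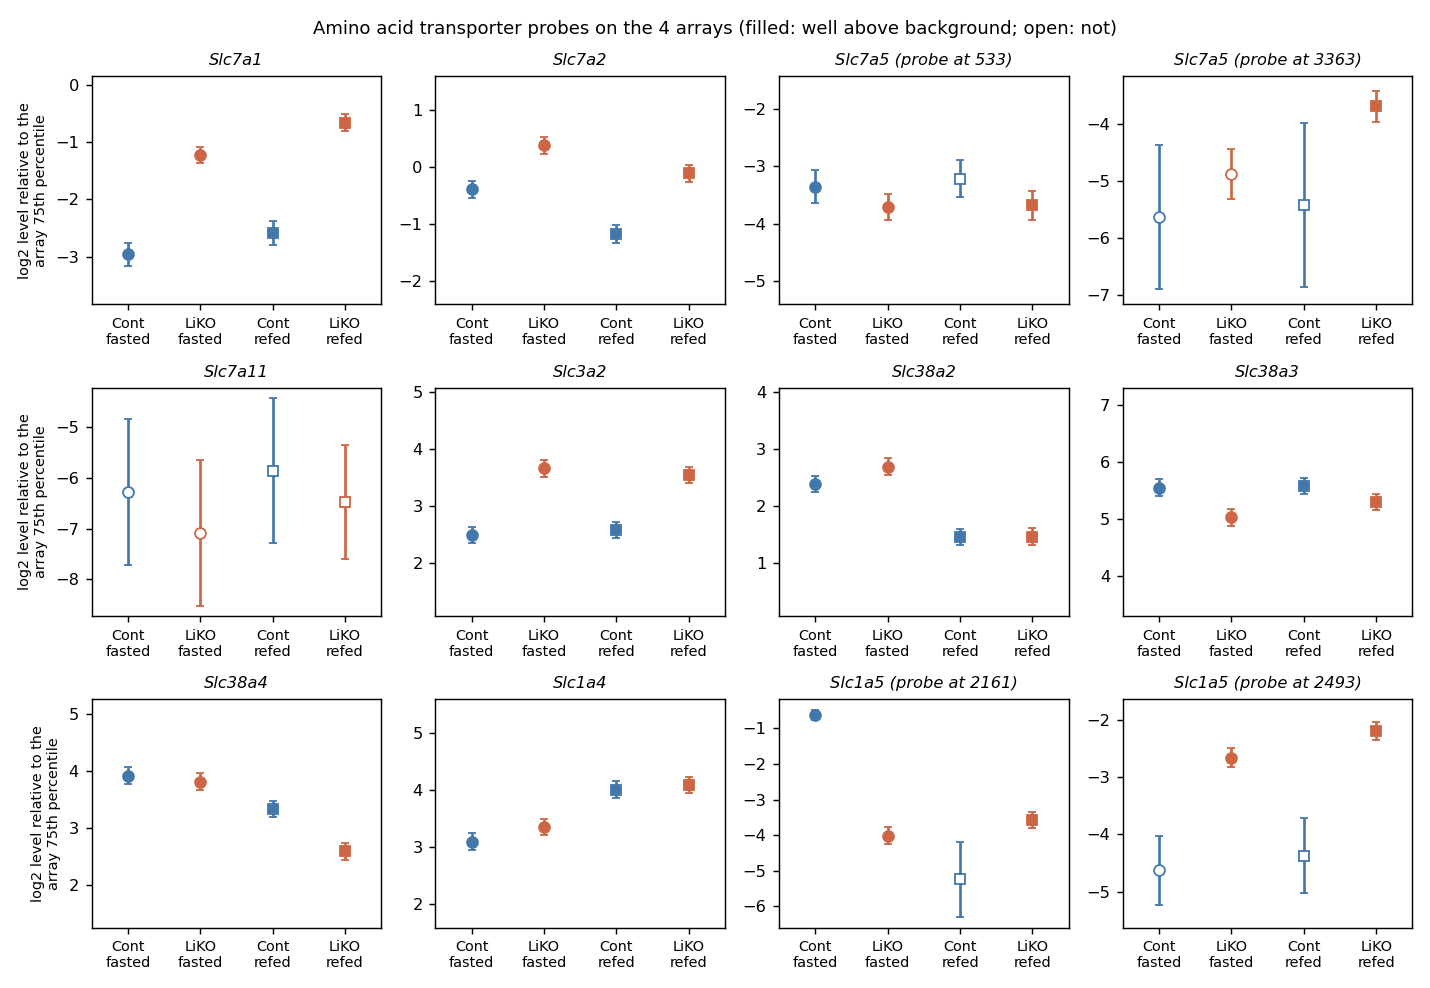
Level of each of the 12 probes (y axis, log2 relative to the 75th percentile of the array, each panel with its own range) on the 4 arrays (x axis; LiKO is Drp1LiKO, circles are fasted and squares refed, blue is Cont and orange Drp1LiKO). Bars are the measurement SE of 1 array, and open symbols were not detected (not well above background). Slc7a1, Slc7a2 and Slc3a2 were higher on both Drp1LiKO arrays than on the matching Cont arrays, Slc38a2 and Slc38a4 were lower on both refed arrays, and the 2 Slc1a5 probes place fasted Cont differently among the arrays.

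Between genotypes, the cationic amino acid carriers Slc7a1 and Slc7a2 and the heavy chain Slc3a2 had the larger positive differences among members measured on all 4 arrays. They were higher in Drp1LiKO liver in both feeding states, by 3.33-fold and 3.82-fold for Slc7a1, 1.71-fold and 2.09-fold for Slc7a2, and 2.25-fold and 1.95-fold for Slc3a2. Slc1a5 was also higher in Drp1LiKO on one of its probes and gave conflicting values on the other. The family 38 carriers and Slc1a4 differed by less than 2-fold between genotypes in both states.

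Counted by the rule above on 1 probe per gene, 2 of 9 members were higher in Drp1LiKO after fasting (Slc7a1, Slc3a2), where 8.06% of 18040 genes were. In the same comparison 1 of 9 was lower (Slc1a5), against 5.19% of genes. After refeeding 3 of 9 were higher (Slc7a1, Slc7a2, Slc1a5), against 8.05% of 17446 genes, and 0 were lower, against 6.33%. Slc1a5 had no bound in refed liver, since its counted probe was not detected in refed Cont, and with such sides read at their bound 2 of 9 were higher. Higher by the rule in both states was Slc7a1, against 2.78% of 16523 genes, and no member was lower in both, against 1.42%. The median member difference was 0.26 after fasting and 0.08 after refeeding, and that of all genes was -0.08 and -0.04.

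Slc7a1 encodes the carrier through which most cells take up arginine and lysine. Its probe, in the last part of the transcript at chr5:149139957-149140016 (mm9, minus strand), had levels of -2.96 in fasted Cont, -1.22 in fasted Drp1LiKO, -2.59 in refed Cont and -0.65 in refed Drp1LiKO. Both Drp1LiKO arrays lay above both Cont arrays, and the gene was detected on all 4. Drp1LiKO minus Cont was 1.74 (SE 0.25) in fasted and 1.93 (SE 0.25) in refed liver. This probe was dim, with signals of 59.2 and 59.3 on the Cont arrays, and its differences depended on the background correction: with normexp they were 0.98 and 1.17.

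Slc7a2, a cationic amino acid carrier that hepatocytes and activated macrophages make, had levels of -0.39 in fasted Cont, 0.38 in fasted Drp1LiKO, -1.18 in refed Cont and -0.11 in refed Drp1LiKO (chr8:42002869-42002928, mm9, plus strand). Each Drp1LiKO array was above the Cont array of its feeding state, and each refed array was below the fasted array of its genotype. The genotype difference was 0.77 (SE 0.21) in fasted and 1.06 (SE 0.22) in refed liver, just outside and just inside the 2-fold limit.

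Slc3a2 encodes the heavy chain, also known as CD98, without which the light chains of family 7 do not reach the cell surface. Its levels were 2.49 in fasted Cont, 3.66 in fasted Drp1LiKO, 2.58 in refed Cont and 3.54 in refed Drp1LiKO (chr19:8782189-8782248, mm9, minus strand). The Drp1LiKO arrays were about alike and lay above the Cont arrays, which were also about alike. The difference was 1.17 (SE 0.20) in fasted and 0.96 (SE 0.20) in refed liver.

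The light chains that bind Slc3a2 gave other values. Slc7a11, which exchanges cystine for glutamate, was read by 1 probe, at transcript position 8325. Its signals lay between 5.32 and 6.17 on the 4 arrays and it was detected on none, so it has no difference to report. Slc7a5, the carrier of large neutral amino acids, was dim on both probes. Its probe near the start of the coding sequence had levels of -3.35, -3.71, -3.22 and -3.68 in fasted Cont, fasted Drp1LiKO, refed Cont and refed Drp1LiKO. In refed Cont this probe was not detected. The genotype difference on it was -0.36 (SE 0.37) in fasted and -0.46 (SE 0.41) in refed liver, close to the size of its measurement error.

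The other Slc7a5 probe, near the end of the transcript, was detected in refed Drp1LiKO, where its level was -3.70, and on no other array. Its genotype difference was 0.76 (SE 1.34) in fasted liver, with no array detected, and 1.73 (SE 1.46) in refed liver, with no bound on the fold. It was at least 2.09-fold higher in refed than in fasted Drp1LiKO. With the median over both probes, the Slc7a5 genotype difference was 0.20 and 0.63, of opposite sign to that of the coding probe. The pair of probes thus gave no common answer for Slc7a5. Among the other light chains, Slc7a7 was 0.56 and 0.61 higher in Drp1LiKO after fasting and refeeding and Slc7a8 was 0.29 and 0.59 higher, all under 2-fold, and Slc7a6 and Slc7a10 were not detected.

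Slc1a5 encodes the exchanger through which many dividing cells take up glutamine. Its probes lie 332 bases apart in the transcript, the first at the very end of the coding sequence at chr7:17383027-17383086 and the second at chr7:17383359-17383418 (mm9, plus strand), and they disagreed. The first probe had levels of -0.62 in fasted Cont, -4.02 in fasted Drp1LiKO, -5.24 in refed Cont and -3.59 in refed Drp1LiKO. On it fasted Cont stood far above the other arrays, and refed Cont gave no detected signal. The second probe had levels of -4.63, -2.66, -4.37 and -2.18 in the same order, and the gene was detected on the Drp1LiKO arrays only.

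By the first probe, Drp1LiKO minus Cont was -3.40 (SE 0.28) for Slc1a5 in fasted liver. In refed liver it was 1.66 (SE 1.09), with no bound on the fold because the lowest detected level of the Cont array lies at or above that of the Drp1LiKO spot. By the second probe it was 1.97 (SE 0.63) in fasted and 2.19 (SE 0.68) in refed liver. With the undetected Cont side at its bound, this is at least 2.47-fold and 2.57-fold higher in Drp1LiKO. Such a bound leaves out the measurement error. The spot of the first probe on the fasted Cont array was uneven. Its pixels had a coefficient of variation of 41.9%, larger than in 98.8% of the 1069 gene spots on that array with a mean within 10% of its own, whose median was 15.2%, although the scanner did not mark it as non-uniform. On the other arrays the pixels of this probe varied by 16.9% to 20.6%. The part of this spot in the disagreement was not tested.

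The sequences of the coding probes of Slc7a5 (chr8:124430996-124431055, mm9, minus strand) and Slc1a5 are shown because the count for these genes rests on them. Each is 60 bases long, given 5′ to 3′ as in the scanner files, and 2 and 3 of its 3 reading frames hold no stop.
Slc7a5: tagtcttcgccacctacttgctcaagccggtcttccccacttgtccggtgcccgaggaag
Slc1a5: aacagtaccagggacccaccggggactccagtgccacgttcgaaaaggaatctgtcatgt

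**Figure D2:**
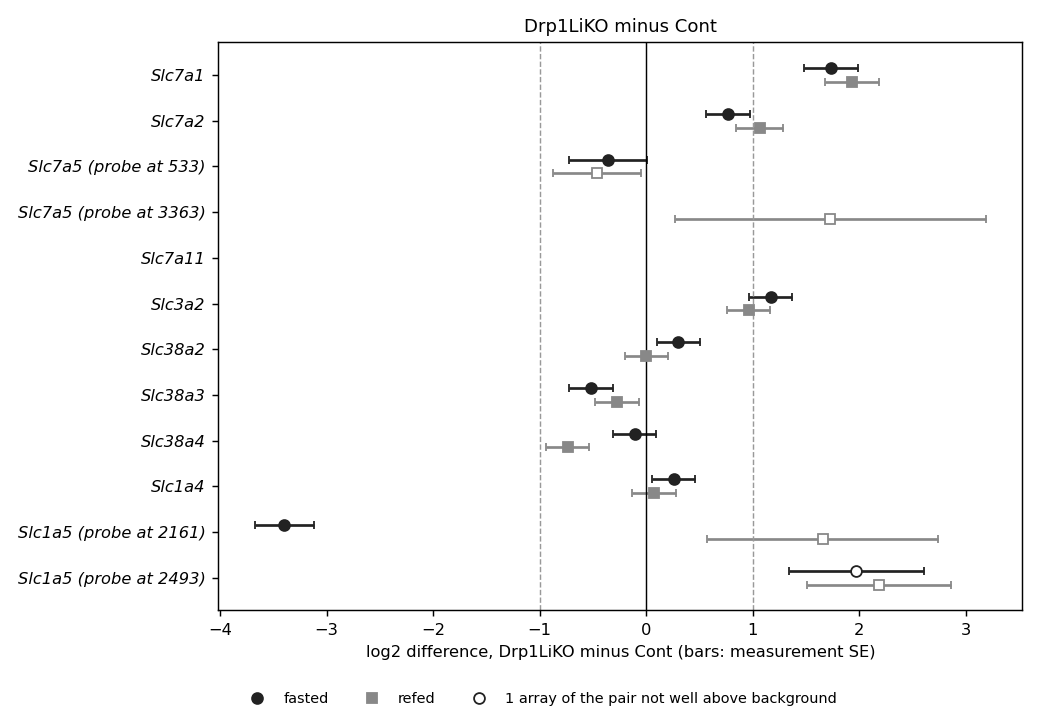
Difference between Drp1LiKO and Cont (x axis, log2) for each probe (y axis) after fasting (black circles) and after refeeding (grey squares), with the measurement SE as bars. Dashed lines mark 2-fold, open symbols have 1 array without detection, and pairs with none detected are left out. Slc7a1, Slc7a2 and Slc3a2 lie to the right of 0 in both states, and the Slc1a5 probe at transcript position 2161 lies at -3.40 after fasting and 1.66 after refeeding.

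The sodium-coupled carriers of family 38 differed less between genotypes, by under 2-fold in both states. Slc38a3, the glutamine carrier of hepatocytes around the central vein, had levels of 5.55 in fasted Cont, 5.03 in fasted Drp1LiKO, 5.58 in refed Cont and 5.30 in refed Drp1LiKO (chr9:107553825-107553884, mm9, minus strand). Drp1LiKO minus Cont was -0.52 (SE 0.20) in fasted and -0.27 (SE 0.20) in refed liver. When the arrays were quantile normalised, these differences were -0.23 and -0.14. The median difference of the 7 hepatocyte markers was -0.52 after fasting and -0.41 after refeeding. Among these markers Cps1 went the other way, at 0.60 and 1.24.

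Slc38a4, a carrier of small neutral amino acids that is abundant in liver, had levels of 3.92 in fasted Cont, 3.81 in fasted Drp1LiKO, 3.33 in refed Cont and 2.59 in refed Drp1LiKO (chr15:96825482-96825541, mm9, minus strand). The genotypes differed by -0.11 (SE 0.20) in the fasted and -0.74 (SE 0.20) in the refed state. The change in that difference between states was -0.63 (SE 0.29), over 2 times its measurement SE, which leaves out the spread between animals.

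Slc38a2, the carrier of the same class that cells raise when amino acids are scarce, had levels of 2.39 in fasted Cont, 2.69 in fasted Drp1LiKO, 1.46 in refed Cont and 1.46 in refed Drp1LiKO (chr15:96518491-96518550, mm9, minus strand). The genotypes differed by 0.30 (SE 0.20) in the fasted and 0.00 (SE 0.20) in the refed state. Slc1a4, the exchanger of alanine, serine and cysteine, differed by 0.26 (SE 0.20) and 0.08 (SE 0.20).

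Between feeding states, Slc38a2, Slc38a4 and Slc7a2 were lower, and Slc1a4 higher, on the refed than on the fasted array of both genotypes, while Slc3a2 and Slc38a3 differed by at most 1.21-fold. By the 2-fold rule, 1 of 9 members was lower in refed Cont (Slc1a5 on its first probe), against 5.83% of 16437 genes, and 0 were higher, against 4.47%. In Drp1LiKO, 2 of 9 were lower (Slc38a2, Slc38a4), against 7.15% of 18329 genes, and 0 were higher, against 5.61%. No member was past 2-fold in both genotypes, where 0.677% of 15803 genes were higher and 1.72% lower.

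The refeeding difference of Slc38a2 was -0.93 (SE 0.20) in Cont and -1.23 (SE 0.20) in Drp1LiKO, that is, 1.90-fold and 2.34-fold lower. For Slc38a4 it was -0.59 (SE 0.20) and -1.22 (SE 0.20), the latter 2.33-fold lower. For Slc7a2 it was -0.78 (SE 0.22) in Cont and -0.49 (SE 0.21) in Drp1LiKO. All 3 genes thus had lower levels on both refed arrays, and of the 6 differences those of Slc38a2 and Slc38a4 in Drp1LiKO passed 2-fold.

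Slc1a4 had levels of 3.10 in fasted Cont, 3.36 in fasted Drp1LiKO, 4.01 in refed Cont and 4.08 in refed Drp1LiKO. Both refed arrays lay above both fasted arrays, by 0.91 (SE 0.20) in Cont and 0.73 (SE 0.20) in Drp1LiKO. Slc7a1 was 0.37 (SE 0.29) and 0.57 (SE 0.21) higher after refeeding. Slc3a2 differed by 0.09 (SE 0.20) in Cont and -0.12 (SE 0.20) in Drp1LiKO. Slc38a3 differed by 0.03 (SE 0.20) and 0.27 (SE 0.20), the latter turning to -0.13 when the arrays were quantile normalised.

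For Slc1a5, the first probe was at least 7.61-fold lower in refed than in fasted Cont and 0.43 higher (SE 0.33) in Drp1LiKO. The second probe was not detected in Cont in either state and was 0.47 higher (SE 0.23) in Drp1LiKO. The difference on the first probe in Cont rests on the uneven spot described above.

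**Figure D3:**
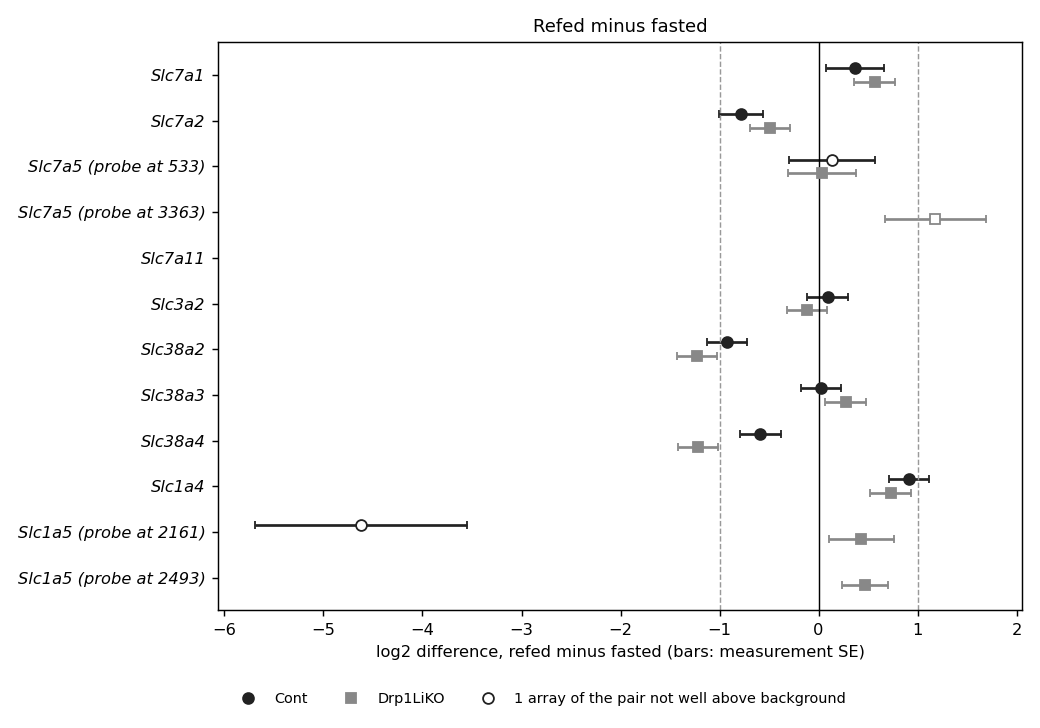
Difference between refed and fasted liver (x axis, log2) for each probe (y axis) in Cont (black circles) and Drp1LiKO (grey squares), with the measurement SE as bars, dashed lines at 2-fold and open symbols where 1 array had no detection. Slc38a2, Slc38a4 and Slc7a2 lie to the left of 0 and Slc1a4 to the right in both genotypes, and the Slc1a5 probe at transcript position 2161 lies at -4.62 in Cont.

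The only test these arrays allow is an additive limma fit of genotype and feeding state, with 1 residual degree of freedom, which treats a feeding-dependent genotype difference as error. On the 16744 genes detected on 2 or more arrays, it called 0 genes at an adjusted p under 0.05 for genotype (0.0% of genes) and 0 for feeding state (0.0%). At an unadjusted p under 0.05, limma called 4746 genes and 4 of 9 members for genotype, and 4414 genes and 5 of 9 members for feeding state. The limma genotype effect was 1.84 (SE 0.15, adjusted p = 0.0728) for Slc7a1, 1.07 (SE 0.15, adjusted p = 0.102) for Slc3a2 and 0.92 (SE 0.16, adjusted p = 0.106) for Slc7a2. For Slc1a5 the limma genotype effect was -0.87 (SE 1.37, adjusted p = 0.698) on its first probe. On its second probe the effect was 2.08, but that probe was detected on the Drp1LiKO arrays only. It entered the fit through those arrays and was set against undetected Cont spots, so the fit gives no usable test for it.

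The limma feeding effect was -1.08 (SE 0.16) for Slc38a2, -0.90 (SE 0.22) for Slc38a4, -0.64 (SE 0.16) for Slc7a2 and 0.82 (SE 0.14) for Slc1a4, with an adjusted p of 0.169 for each. In a fit of the 14447 genes detected on all 4 arrays, limma called 8.4% of genes for genotype, among them 3 of the 7 members that remained. These were Slc7a1 (adjusted p = 0.0164), Slc3a2 (adjusted p = 0.0362) and Slc7a2 (adjusted p = 0.0413), all higher in Drp1LiKO. The same fit called 0.104% of genes for feeding state and no member.

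Some macrophage genes were also higher in Drp1LiKO on these arrays. Among the 12 Kupffer cell and macrophage markers, 5 were at least 2-fold higher after fasting and 5 after refeeding (against 8.06% and 8.05% of all genes). In both states 0 were lower (against 5.19% and 6.33%). Of those past 2-fold in both states, Marco was 1.65 and 1.61 higher, Lyz2 1.38 and 1.53, Trem2 2.43 and 1.64, and Gpnmb 2.43 after fasting and at least 3.65-fold after refeeding. The others did not move as one. Cd68 differed by 0.60 and 0.57, Cd5l by 0.25 and 0.82 and Adgre1 by 0.17 and 0.55. Vsig4 differed by 0.16 and 1.04, and Ccr2, not detected in Cont, by 1.09 and 0.37. Itgam differed by -0.88 and -0.66, with its 3 probes from -3.97 to 0.34 after fasting and from -0.66 to 0.19 after refeeding. The resident Kupffer cell markers Clec4f and Timd4 differed by -0.16 and -0.42 after fasting and 0.34 and 0.32 after refeeding. The summed level of the list, as linear signal over the 75th percentile, was 80.1 in fasted Cont, 99.9 in fasted Drp1LiKO, 88.9 in refed Cont and 166 in refed Drp1LiKO, and each of its markers was detected on some array. The summed cholangiocyte markers were 0.575 and 0.592 in Cont and 1.11 and 1.04 in Drp1LiKO, with Epcam not detected. By the rule 2 of 5 of them, Sox9 among them, were higher and 1 was lower after fasting. After refeeding 1 of 4, Sox9, was higher and 0 were lower. Among all genes 8.06% and 8.05% were higher and 5.19% and 6.33% lower. The part of macrophages and cholangiocytes in the differences of Slc7a1, Slc7a2, Slc3a2 and Slc1a5 was not tested.

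Of the remaining markers, 2 of 5 neutrophil genes were lower by the rule in fasted and 2 of 6 higher in refed Drp1LiKO. Higher after fasting and refeeding were 1 and 1 of 7 lymphocyte genes and 2 and 0 of 8 stellate cell and fibroblast genes. Of 6 endothelial genes 1 and 0 were higher. Among all genes 8.06% and 8.05% were higher and 5.19% and 6.33% lower. The summed level after fasting and refeeding went from 93.9 and 57.0 in Cont to 67.4 and 59.7 in Drp1LiKO for neutrophil markers and from 5.28 and 6.62 to 4.39 and 5.70 for lymphocyte markers. It went from 46.2 and 52.1 to 66.3 and 59.4 for stellate cell and fibroblast markers and from 54.3 and 57.3 to 45.3 and 38.7 for endothelial markers. Such sums are set mostly by the brightest genes of a list. The median genotype differences after fasting and refeeding were -0.47 and 0.48 for neutrophil and 0.46 and 0.46 for lymphocyte markers. They were 0.80 and -0.0009 for stellate cell and fibroblast and 0.08 and -0.13 for endothelial markers. The lymphocyte sums and medians thus went opposite ways.

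The other amino acid carriers were counted by the same rule. Of 35 further plasma membrane carriers, 19 were detected on some array. In fasted liver 2 of these were higher in Drp1LiKO, Slc1a1 and Slc6a14, where 8.06% of all genes were. Each was detected in fasted Drp1LiKO alone, and they were at least 1.43-fold and 2.69-fold higher, so the bound of Slc1a1 lies under 2-fold. In the same comparison 2 were lower, Slc1a2 with a difference of -1.17 and Slc3a1 with one of -1.44, where 5.19% of all genes were. After refeeding 0 of 17 passed 2-fold in either direction, where 8.05% of all genes were higher and 6.33% lower. None of the 5 lysosomal carriers detected passed 2-fold in any comparison, where between 4.47% and 8.06% of all genes did in each direction. Of the mitochondrial carriers, 0 of 7 passed it after fasting, where 8.06% of all genes were higher and 5.19% lower. After refeeding 2 of 8 were lower in Drp1LiKO, where 6.33% of all genes were. These were Slc25a29, with a difference of -1.33, and Slc25a2, which was at least 2.28-fold lower.

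Atf4 and the genes known as its targets outside transport form a list of 16 genes, which includes Atf4 itself. Like the members, it was chosen with earlier results of these data known. In Drp1LiKO 8 of them passed 2-fold upward in fasted and 8 in refed liver, against 8.06% and 8.05% of all genes. Downward 0 passed it in either state, against 5.19% and 6.33% of all genes, and the median differences were 1.29 and 1.13. Asns, which makes asparagine, was 3.78 and 3.65 higher, Trib3, a pseudokinase induced by stress, 4.02 and 3.43 higher, and Atf3, a stress-induced factor, 5.58 and 4.42 higher. Nupr1, a stress-induced nuclear protein, was 5.21 and 4.51 higher, and Ddit3, the transcription factor also called Chop, 2.09 and 3.60 higher. Psat1 and Phgdh, enzymes of serine synthesis, were at least 20.3-fold and 3.41-fold higher after fasting. After refeeding Psat1 was 4.04 higher, and Phgdh was 1.85 (SE 0.39) higher against a Cont spot that was not detected. Atf4 itself was 0.61 and 0.51 higher. Members known as Atf4 targets thus gave different values, from Slc7a1 and Slc3a2 near or above 2-fold to Slc7a11, which was not detected.

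RefSeq promoter sequences (GRCm38.p6, 250 bases before to 50 after the start) were at hand for 6 members, with 9 promoters among them: Slc7a1, Slc7a11, Slc3a2, Slc38a2, Slc38a4 and Slc1a4. They were searched on both strands for TGATGNAA, the core of the composite element that Atf4 binds with a C/EBP factor. It was found in 2 of the 9 promoters, those of Slc7a11 and Slc1a4, and in 3.97% of 32851 promoters of that length. Both stretches are shown 5′ to 3′ on the strand of the gene, with the match in capitals, so that the members with and without a core can be set beside their values. They lie at chr3:50443628-50443704 and chr11:20332710-20332742, on the minus strand.
Slc7a11, composite element core: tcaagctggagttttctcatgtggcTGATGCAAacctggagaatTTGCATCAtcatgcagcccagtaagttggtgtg
Slc1a4, composite element core: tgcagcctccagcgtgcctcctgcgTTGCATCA

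The Slc7a11 promoter held the core on both strands, beginning 66 and 47 bases before the start, and the 1 probe of this gene gave no detected signal. Slc1a4, whose match begins 4 bases before the start, differed by 0.26 and 0.08 between genotypes. Slc7a1, which differed by 1.74 and 1.93, and Slc3a2, which differed by 1.17 and 0.96, held no such core in these windows. A match in these letters is a description and not a site of binding, and its absence says nothing about sequence outside these windows. Whether a core goes with the genotype differences was not tested.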

How the data were processed

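Liver RNA of 4 groups (1 array each, 4 arrays on 1 slide read in 1 scan) was labelled with Cy3. The authors deposited scanner files, from which the processed intensity of each spot was used. Per the file headers, Agilent Feature Extraction 10.7.1.1 had subtracted local background, and these linear intensities carry no scaling between arrays (the submitters' processing notes name version 9.5.1.1). The authors' series matrix was used as an alternative, and a quantile normalisation of the same signals gave its values to within 0.000424 on the log2 scale. The labels and the study's methods name different array designs, RNA kits and fasting times, and the headers match the design in the labels. Probe positions are mm9.

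Gene spots without outlier flags were log2-transformed, the 75th percentile of the same array was subtracted, and repeated spots were averaged, which left 39392 of 39429 probes. Of 28389 RefSeq accessions 26761 were matched to a gene of GRCm38.p6. A gene with several probes was counted by the probe detected (well above background) on more arrays, then by the brighter one. All 10 members are named with every probe, and from the other lists genes past 2-fold one way in both feeding states or genotypes, light chains, markers near background and Dnm1l, plus those named where counts were small. The members and lists were chosen with earlier results of these data known. A side not well above background was read as a bound, from the higher of its own signal and the lowest signal called above background on that array. A fold given as "at least" leaves out the measurement error.

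limma 3.58.1 in R 4.3.3 was fitted with genotype and feeding state, with Benjamini-Hochberg adjustment over all genes. Python 3.11.15, numpy 2.4.6, pandas 2.3.3 and matplotlib 3.10.9 were used. The fold rule and the limma fit were tested on simulated data. Alternatives were array median scaling, quantile normalisation, normexp with an offset of 50, the authors' values, the median over probes, other filters on dim probes, a 1.5-fold limit, an intensity trend, and a fit without the other factor. Reading Slc1a5 from its second probe was added after the data had been seen. One marker gene and one promoter stretch, with the motif search it belonged to, are not reported here.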

Additional observations from a re-analysis of the deposited data

Results flagged for a closer look

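The Slc1a5 probe at transcript position 2161 passed 2-fold in opposite directions between genotypes, at -3.40 after fasting and 1.66 after refeeding (Drp1LiKO minus Cont, log2), with 1 array on each side. This change of direction was not tested, since 1 array per group leaves no error for it, and the refed value does not carry it. The refed value (SE 1.09) is set against a Cont spot that was not detected, has no bound and was 0.05 with normexp. The fasted value was -2.16 with normexp and rests on the uneven spot of the fasted Cont array. The median pixel of that spot was 329, against 128 in fasted Drp1LiKO, 96 in refed Cont and 122 in refed Drp1LiKO. On the second Slc1a5 probe the gene was at least 2.47-fold higher in Drp1LiKO after fasting and at least 2.57-fold higher after refeeding.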

How the results depend on the processing

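Of the member counts, 56 were within 1.5 times of the reported count and 10 were not. The count of members past 2-fold between genotypes after refeeding, 3 as reported, was 1 with normexp and 5 at 1.5-fold. The count past 2-fold after refeeding in Cont, 1 as reported, was 0 with both arrays required well above background, 5 at 1.5-fold and 0 with Slc1a5 read from its second probe, which also left 0 members whose genotype difference changed by over 1 (log2) between states. Read from that probe, Slc1a5 turned direction between genotypes after fasting, to 1.97 against a Cont spot that was not detected. After refeeding in Cont its value was 0.26 (SE 0.90) with neither array detected, which gives no direction. limma called 0 members for genotype as reported, 2 of 9 with an intensity trend (Slc7a1 and Slc3a2, among 474 genes), 1 with array median scaling (Slc7a1, among 319 genes), 2 with normexp (Slc7a1 and Slc3a2, among 498 genes) and 3 of 7 on genes above background on all 4 arrays (among 1214 genes). For feeding state it called 0 members under each alternative. The spread behind these changes was estimated with 1 residual degree of freedom, and the cause of each was not tested. Slc7a5, Slc7a11 and Slc1a5 were limited by signals near background. No array could be left out, since each group has 1. No paired analysis was possible because each group has 1 array and the labels carry no replicate numbers.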
